A study of Homo sapiens with 6 samples.

Results

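The cytosolic ribosomal protein genes were examined in H146 cells, an established small-cell lung cancer (SCLC) line, after siRNA-mediated knockdown of *KIFC1*. KIFC1 is a minus-end-directed kinesin that holds extra centrosomes together at the spindle poles. The members were protein-coding genes whose symbol starts with RPL or RPS and a digit, together with *RPLP0*, *RPLP1*, *RPLP2* and *RPSA*. The S6 kinase genes, *RPS19BP1*, pseudogenes and antisense genes were left out. This rule gave 90 of the 28395 genes in the table. Of these, 46 were core genes of the large subunit (including the stalk proteins), 31 were core genes of the small subunit, 8 were paralogs, 3 were read-through loci that join a member to the next gene, and 2 lay on chromosome Y and are only counted here.

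Libraries were made on day 2 after transfection, 3 from cells given a negative control siRNA (control, genotype WT) and 3 from cells given a KIFC1 siRNA (siKIFC1, genotype KIFC1 knockdown). The labels call them biological replicates, and the knockdown is transient, in 1 cell line and with 1 siRNA. All p-values measure the spread between these libraries. Each library held between 15392374 and 17754458 counts, of which mitochondrial genes took 8.34% to 13.1%. Control libraries held 14, 4 and 14 *KIFC1* counts, and siKIFC1 libraries held 1, 1 and 0. At these low counts *KIFC1* did not pass the filter of the main test, so its fall was not tested there. Of 10 neuroendocrine SCLC markers, *NEUROD1* alone stayed near 0 (0 to 5 counts per library). The summed level of the 10 markers was 3276 to 3679 CPM (counts scaled to library size) in control and 3385 to 3998 CPM in siKIFC1 libraries. That of 10 leukocyte, fibroblast and endothelial markers was 19.47 to 26.65 and 22.04 to 25.62 CPM. In bulk RNA a change in the number of cells and a change in RNA per cell cannot be told apart.

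Ribosomal proteins fold onto rRNA in the nucleolus to build the small subunit, which decodes the mRNA, and the large subunit, which joins the amino acids. Each protein is present about once per ribosome, apart from the stalk, in which P0 anchors dimers of P1 and P2 that recruit elongation factors. Most of their mRNAs start with a terminal oligopyrimidine (TOP) tract, through which mTORC1 and LARP1 control their translation. Their genes have many processed pseudogenes, and a few have paralogs that replace the main protein in some tissues.

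A pyrimidine tract was searched at the annotated start of each gene in RefSeq (GRCh38.p14), as a C at the start followed by at least 4 bases that are each C or T, on the gene's own strand. It was found in 42 of the 62 core members with a promoter sequence (67.7%), and in 4.64% of the 15331 protein-coding genes of the table that had one. The median tract was 8 bases long. The windows below hold 10 bases before the start and 20 from it on, with the tract in capitals. They are shown for the 3 stalk genes and for the members that the results turn on.

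RPLP0 (chr12:120201092-120201121, minus strand): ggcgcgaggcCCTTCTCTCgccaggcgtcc

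RPLP1 (chr15:69452808-69452837, plus strand): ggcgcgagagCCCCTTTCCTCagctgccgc

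RPLP2 (chr11:809957-809986, plus strand): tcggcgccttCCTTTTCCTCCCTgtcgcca

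RPS25 (chr11:119018324-119018353, minus strand): gcagcgcttcCTTTTTgtccgacatcttga

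RPL22L1 (chr3:170870176-170870205, minus strand): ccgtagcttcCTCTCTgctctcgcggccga

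RPL26L1 (chr5:172958719-172958748, plus strand): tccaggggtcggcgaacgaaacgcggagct

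All 3 stalk genes, *RPS25* and *RPL22L1* had the tract, and *RPL26L1* did not have it at this start. The 41 tested core members with a tract had a median log2 fold change of siKIFC1 over control (log2FC) of 0.10, and the 20 without one had 0.09. This split follows the annotated RefSeq start and does not separate TOP from other mRNAs. For some members counted without a tract, such as *RPL10*, that start lay outside the canonical transcript of GENCODE 44.

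Of the 90 members, 82 passed the filter on low counts and were tested. *RPLP0*, which encodes the stalk base P0 and is widely used as a reference gene in RT-qPCR, was the only member called after KIFC1 knockdown. Across all 14776 genes tested, 0.332% were called higher and 0.379% lower (0.711% in all) at an adjusted p under 0.05 (edgeR's quasi-likelihood test, Benjamini-Hochberg adjustment). No member was called lower by edgeR or DESeq2, and 3 members, all higher, had an unadjusted p under 0.05, as did 9.24% of all genes. The other 81 members had log2FC values between -0.64 and 0.41. Of the members tested, 76 (92.7%) lay within 0.25 of 0 on the log2 scale, against 76.8% of all genes. The median standard error was 0.126 for the members and 0.146 for all genes, and genes of like level were not compared.

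**Figure D1:**
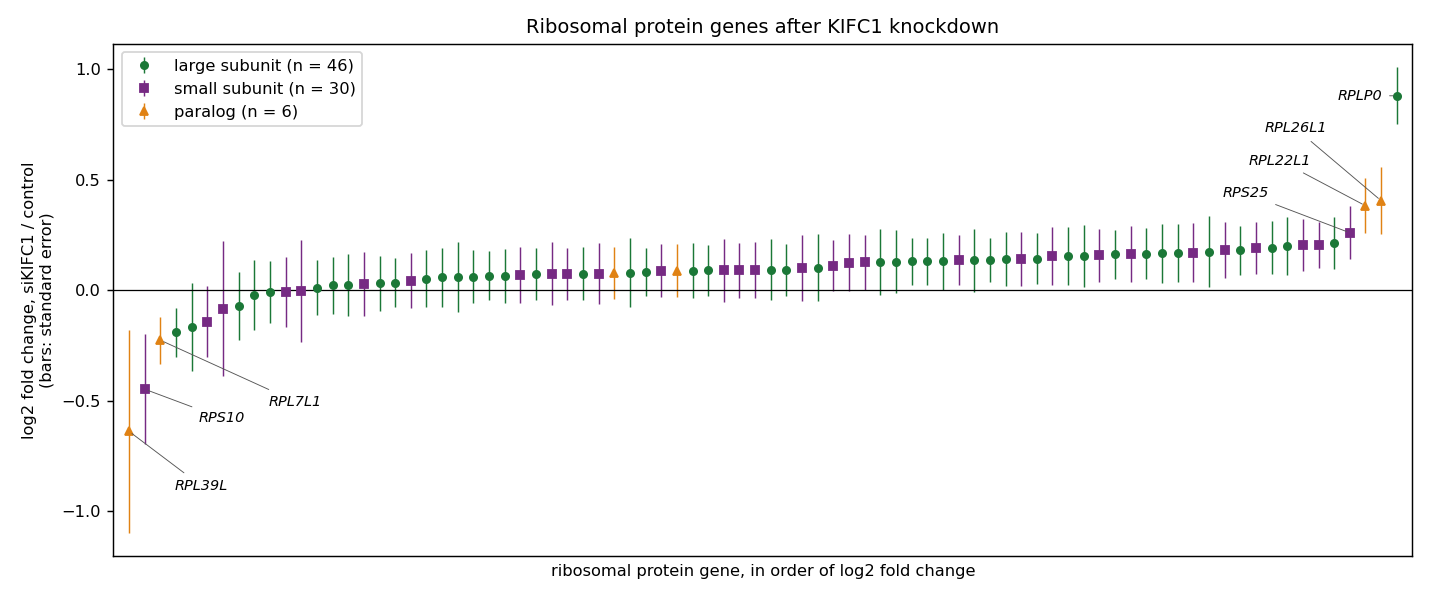
Log2FC (siKIFC1 over control, bars: SE) of the 82 members tested, in order of value and coloured by large subunit, small subunit and paralog, with the outermost genes named. *RPLP0* stands at 0.88, and the other members lie between -0.64 and 0.41.

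*RPLP0* (NCBI gene ID 6175; chr12:120196699-120201111 of GRCh38) had 923.6, 874.1 and 696.8 CPM in the control libraries. It had 1670, 1567 and 1356 CPM in the siKIFC1 libraries. The lowest siKIFC1 library was above the highest control library, so the groups did not overlap. The level rose 1.84-fold, from 832 ± 119 to 1531 ± 160 CPM (SD, n = 3), a log2FC of 0.88 (SE, the standard error, 0.13, adjusted p = 0.00970 in edgeR). Blocked by replicate number, the adjusted p was 2.85e-09, and over all alternatives it ranged from there to 0.0473. With 1 library left out, the log2FC stayed between 0.77 and 0.96. *RPLP0* took 2.69 ± 0.0961% (SD, n = 3) of the counts on all members in control and 4.52 ± 0.0998% in siKIFC1 libraries.

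The genes of the other stalk proteins were not called. *RPLP1*, which encodes P1, had 451.8, 497.9 and 389.1 CPM in control and 524.6, 538.2 and 352.3 CPM in siKIFC1 libraries. The siKIFC1 libraries held both its highest and its lowest level. *RPLP2*, which encodes P2, had 303.3, 314.6 and 247.3 CPM in control and 362.7, 327.8 and 238.7 CPM in siKIFC1 libraries, with the same overlap. Their log2FC values were 0.08 (SE 0.16) and 0.10 (SE 0.15), with adjusted p of 0.938 and 0.911 in edgeR.

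The counts of *RPLP0* were 204.4%, 175.6% and 179.1% of those of *RPLP1* in control, and 318.3%, 291.1% and 385.1% in siKIFC1 libraries. The log2 ratio of *RPLP0* to *RPLP1* was 0.82 higher after KIFC1 knockdown (exact permutation test, two-sided, p = 0.10). That of *RPLP0* to *RPLP2* was 0.80 higher (exact permutation p = 0.10). Both were higher in 3 of 3 replicate pairs, and 0.10 is the smallest p that 3 libraries against 3 allow. Both ratios were chosen after the levels had been seen, and adjusted over these 2 ratios the exact p stayed at 0.10.

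**Figure D2:**
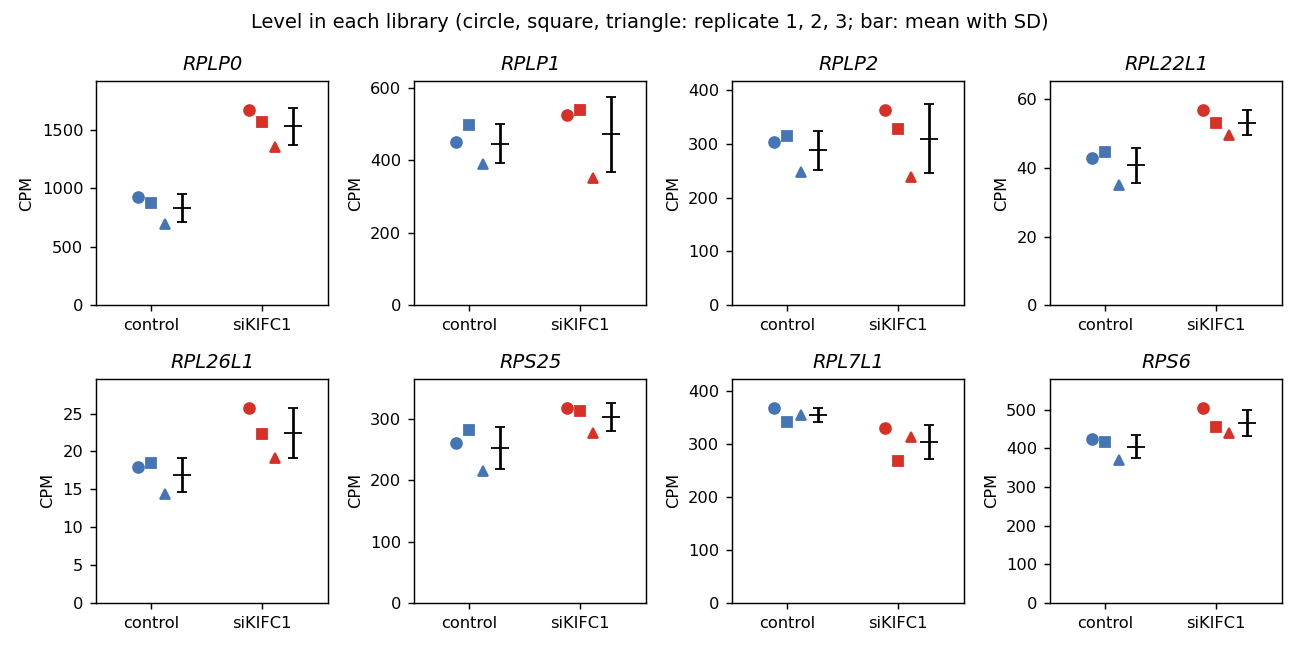
CPM in each library (circle, square and triangle: replicate 1, 2 and 3) for 8 members, with the mean and SD of each group. The siKIFC1 libraries of *RPLP0* sit between 1356 and 1670 CPM, all above the control libraries, while those of *RPLP1* and *RPLP2* overlap the control libraries.

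The 3′ UTRs of the members were also searched for a 6-base word, GCAACC, which had been found to be frequent in the rising genes of these same libraries, so that its counts are not independent evidence. Only the mRNA strand of GENCODE 44 canonical transcripts was searched, in 3′ UTRs of 50 bases or more. The 3′ UTR of *RPLP0* is 74 bases long and holds the word once, and that of *RPL26L1*, the member with the next highest log2FC, is 230 bases long and also holds it once. Both sites are shown in 30 bases of mRNA sequence, with the word in capitals.

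RPLP0 (chr12:120196743-120196772, minus strand): tcaccaaaaaGCAACCaacttagccagttt

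RPL26L1 (chr5:172969544-172969573, plus strand): agaacctgttgtGCAACCacggtttaaccg

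The word occurred in 12 of the 62 tested members with such a 3′ UTR (19.4%) and in 23.2% of the 12973 tested genes with one. The log2FC values of the 12 members ran from 0.03 for *RPL37* to 0.88 for *RPLP0*, with a median of 0.15, and the median of the members without it was 0.09. *RPLP0* was the only one of the 19 members with a 3′ UTR of 50 to 150 bases that held the word. Among all tested genes with 3′ UTRs of that length, 9 of 675 (1.33%) held the word, *RPLP0* among them. Their median log2FC was 0.35, against 0.06 in those without the word. Since the word came from rising genes of these libraries, this gap is not independent evidence either. Over all 12973 genes the gap was small, with a median of 0.03 in the 3015 genes with the word, of which 1653 were positive, and 0.01 in those without it. A second word from the same search, GAGATCT, occurred in the 3′ UTRs of *RPL14*, *RPL23A* and *RPS28*, whose log2FC values were 0.18, 0.07 and -0.01. Over all tested genes, the 1163 with this word had a median of -0.11, with 366 positive, and those without it 0.02. The part of either word in the levels was not tested.

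The core genes of both subunits had about the same central value. The 46 tested genes of the large subunit had a median log2FC of 0.09, with 41 positive and 5 negative. The 30 tested genes of the small subunit had a median of 0.09, with 25 positive and 5 negative. Over all 82 members the median was 0.09, with 70 positive values (85.4%), while all genes tested had a median of 0.01 and 52.1% positive values. Without control replicate 3, the median over the members was -0.00067, so the sign of the median rests on that library. Without siKIFC1 replicate 1 it was 0.02.

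The share of counts on the members, with *RPLP0* included, was higher in siKIFC1 libraries within each replicate pair, by amounts that differed widely. Members took 3.22%, 3.31% and 2.76% of the counts in control libraries and 3.78%, 3.34% and 3.00% in siKIFC1 libraries. Control replicate 3 was the lowest and siKIFC1 replicate 1 the highest. The means were 3.10 ± 0.296% and 3.37 ± 0.389% (SD, n = 3), and the groups overlapped. Within the 3 replicate pairs the share was 0.556, 0.0245 and 0.240 percentage points higher in siKIFC1 libraries, a design in which the exact p cannot go below 0.25. Without *RPLP0* the members took 3.01 ± 0.287% and 3.22 ± 0.373%. The differences within the pairs were then 0.479, -0.0423 and 0.178 percentage points, so pair 2 went the other way. In that pair mitochondrial genes took 10.2% of the counts in the control and 13.1% in the siKIFC1 library. Of the counts outside mitochondrial genes, the members with *RPLP0* took 0.4789, 0.1513 and 0.2921 percentage points more in the siKIFC1 libraries of the pairs. The groups again overlapped, and this share without *RPLP0* was not computed. The median core gene stood at 0.11, 0.11 and -0.22 on the log2 scale against the control mean in control libraries, and at 0.26, 0.10 and -0.04 in siKIFC1 libraries. Over all tested genes with at least 1 CPM in every library, the same median stayed between -0.0014 and 0.012. The summed counts of the large subunit were 1.59 ± 0.0161 times those of the small subunit in control and 1.62 ± 0.0259 times in siKIFC1 libraries. The groups also overlapped in this ratio, which was higher in all 3 pairs, by 0.0098, 0.0230 and 0.0643. The large subunit sum includes *RPLP0*, whose share of the member counts was 1.648, 1.985 and 1.877 percentage points higher in the same pairs. The ratio without *RPLP0* was not computed, so a rise is not shown for the other genes of the large subunit.

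Blocked by replicate number, 3 further members were called higher and none lower by edgeR, where 2.72% of all genes were called higher and 3.06% lower (5.78% in all). *RPL22L1* (chr3:170864875-170870195), the paralog of *RPL22*, had 42.9, 44.6 and 35.0 CPM in control and 56.8, 53.2 and 49.6 CPM in siKIFC1 libraries. Its groups did not overlap, and its log2FC was 0.38 (SE 0.12). Its adjusted p in edgeR was 0.277 without the block and 0.0134 with it, and reached 0.900 over the alternatives.

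*RPL26L1* (chr5:172959424-172969771), the paralog of *RPL26*, had 18.0, 18.4 and 14.3 CPM in control and 25.7, 22.3 and 19.2 CPM in siKIFC1 libraries, again with no overlap. Its log2FC was 0.41 (SE 0.15), with an adjusted p in edgeR of 0.386 without the block, 0.0303 with it and up to 1.00 over the alternatives. *RPS25* (chr11:119015717-119018343), a small subunit protein that some viral internal ribosome entry sites require, had 260.7, 282.0 and 214.7 CPM in control. It had 317.5, 313.4 and 276.2 CPM in siKIFC1 libraries, of which the lowest overlapped the control libraries. Its log2FC was 0.26 (SE 0.12), with an adjusted p in edgeR of 0.540 without the block, 0.0352 with it and up to 1.00 over the alternatives.

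Other than *RPLP0*, *RPL22L1* and *RPL26L1*, the groups of 2 tested members did not overlap with siKIFC1 higher, and those of 1 did not overlap with siKIFC1 lower. *RPS18*, which was too low in counts to be tested, also had lower values in every siKIFC1 library. Among all genes tested, 7.99% and 7.51% did so. *RPS6*, the substrate of the S6 kinases, had 425.8, 417.8 and 371.3 CPM in control and 504.9, 454.9 and 440.8 CPM in siKIFC1 libraries (log2FC 0.21, SE 0.10, adjusted p = 0.599 in edgeR). *RPL4*, a large subunit protein that lines the exit tunnel, had 674 to 776 CPM in control and 794 to 851 CPM in siKIFC1 libraries. *RPL7L1*, a paralog of *RPL7*, had 367.2, 341.4 and 353.6 CPM in control and 328.7, 266.4 and 312.9 CPM in siKIFC1 libraries. Its log2FC was -0.23 (SE 0.11), with an adjusted p in edgeR of 0.552 without the block and 0.0725 with it. *RPL7* itself had a log2FC of -0.19 (SE 0.11, adjusted p = 0.690 in edgeR), and its groups overlapped.

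The other members named for their values or roles were not called with or without the block. *RPL28*, which follows *RPS25*, had a log2FC of 0.21 (SE 0.12, adjusted p = 0.669 in edgeR). *RPS10* and *RPL36A*, both low in counts, had -0.45 (SE 0.25) and -0.17 (SE 0.20), with adjusted p of 0.669 and 0.889 in edgeR. *RPL5* and *RPL11*, which form a particle with an rRNA that can bind MDM2, had 500 to 596 and 210 to 284 CPM in control and 557 to 641 and 249 to 286 CPM in siKIFC1 libraries. *RPSA*, the laminin receptor protein of the small subunit, had 459 to 575 CPM in control and 500 to 627 CPM in siKIFC1 libraries. The groups of all 3 genes overlapped, with adjusted p of 0.899, 0.987 and 0.817 in edgeR.

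Paralogs were compared with their parents as ratios of counts within a library, which need no scaling between libraries. Of the 8 pairs, 6 had enough counts for the exact permutation test over libraries. *RPL22L1* had 18.5%, 20.7% and 19.0% of the counts of *RPL22* in control, and 23.2%, 24.0% and 24.0% in siKIFC1 libraries. Every siKIFC1 library was above every control library, and the log2 ratio was 0.30 higher (exact permutation p = 0.10, the smallest possible, 0.60 adjusted over the 6 pairs; higher in 3 of 3 replicate pairs). This was the only paralog pair whose groups did not overlap.

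*RPL26L1* had 4.85% to 5.33% of the counts of *RPL26* in control and 5.26% to 6.79% in siKIFC1 libraries, a log2 ratio 0.24 higher (exact permutation p = 0.30). *RPL36AL* had more counts than *RPL36A*, 507% to 730% in control and 612% to 929% in siKIFC1 libraries (exact permutation p = 0.50). *RPL36A* is among the low genes described below, whose counts are uncertain as levels, so the size of this ratio is uncertain too. *RPS27L*, a p53-induced paralog of *RPS27*, stayed at 13.6% to 17.1% of its parent in control and 13.0% to 15.5% in siKIFC1 libraries (exact permutation p = 0.80). *RPL7L1* had 57.2% to 72.8% of the counts of *RPL7* in control and 59.1% to 66.3% in siKIFC1 libraries (exact permutation p = 0.80).

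The paralogs of restricted tissues were low in H146 cells. *RPL39L*, best known from testis, had 25, 21 and 32 counts in control and 30, 7 and 9 counts in siKIFC1 libraries, against 3383 to 4350 counts on *RPL39*. Its log2FC was -0.64 (SE 0.46, adjusted p = 0.775 in edgeR). Scaled to library size, siKIFC1 replicate 1 lay above every control library (1.92 CPM against 1.31 to 1.74 CPM). The log2FC was -1.57 without siKIFC1 replicate 1, -0.32 without replicate 2 and -0.35 without replicate 3 of that group. The log2 ratio to *RPL39* differed by -1.04 (exact permutation p = 0.30), and by -1.59 to -0.72 with 1 library left out, the former without siKIFC1 replicate 1. *RPL3L*, a muscle paralog of *RPL3*, had 2, 6 and 5 counts in control and 2, 12 and 1 counts in siKIFC1 libraries. *RPL10L*, a testis paralog of *RPL10*, had 0 counts in every library, which allows up to 3 counts in each, counting error only. Both chromosome Y members failed the filter on low counts, as did the 3 read-through loci, *RPL3L*, *RPL10L* and *RPS18*.

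Levels of different genes were compared per kilobase of mRNA (length of the GENCODE 44 canonical transcript), as the mean of the 3 control libraries. The 77 core genes had a median of 399.8 CPM per kb. *RPS2* was highest at 1808 CPM per kb, and *RPS12* (1156), *RPL41* (1026) and *RPS20* (919) were also among the highest. *RPS2*, *RPL13A*, *RPL8*, *RPL3* and *RPLP0* were among the members with the most counts. The annotated mRNAs ran from 295 to 7573 bases, with a median of 785, while the coding part had a median of 456, so a long annotated 3′ UTR lowers this level. *RPL37* and *RPL14*, with annotated mRNAs of 7573 and 7136 bases, had 19.1 and 32.2 CPM per kb of mRNA but 497 and 357 CPM per kb of coding sequence.

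A set of 6 core genes had far fewer counts than the rest, at most 322 in any library, where the other 71 had at least 537 in every library. *RPS18* had 5, 5 and 6 counts in control and 2, 2 and 3 counts in siKIFC1 libraries, and *RPS9* had 15 to 20 counts in every library. *RPS10* had 32 to 68 counts, *RPL36A* 143 to 276 and *RPL17* 229 to 322. These proteins are standard parts of each ribosome.

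The low genes had features of the reference in common that the rule had not used. Nearly all 32-base words of the genes *RPS18* (100%) and *RPS9* (96%) also occurred on the 261 alternate sequences of GRCh38. Of the 77 core genes, 3 had 90% or more, all among the low genes, and the next highest had 24.5%. *RPS10*, *RPL17* and *RPL36A* each lie inside an annotated read-through locus (*RPS10-NUDT3*, *RPL17-C18orf32* and *RPL36A-HNRNPH2*), the 3 such loci among the members. These 3 loci had 0 to 2 counts in each library, and read-through loci whose names start with another gene were not searched. Whether reads with several places or several genes were dropped in counting is not given in the sources used here, and its part in these levels was not tested. The counts of these 6 genes are therefore uncertain as levels.

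**Figure D3:**
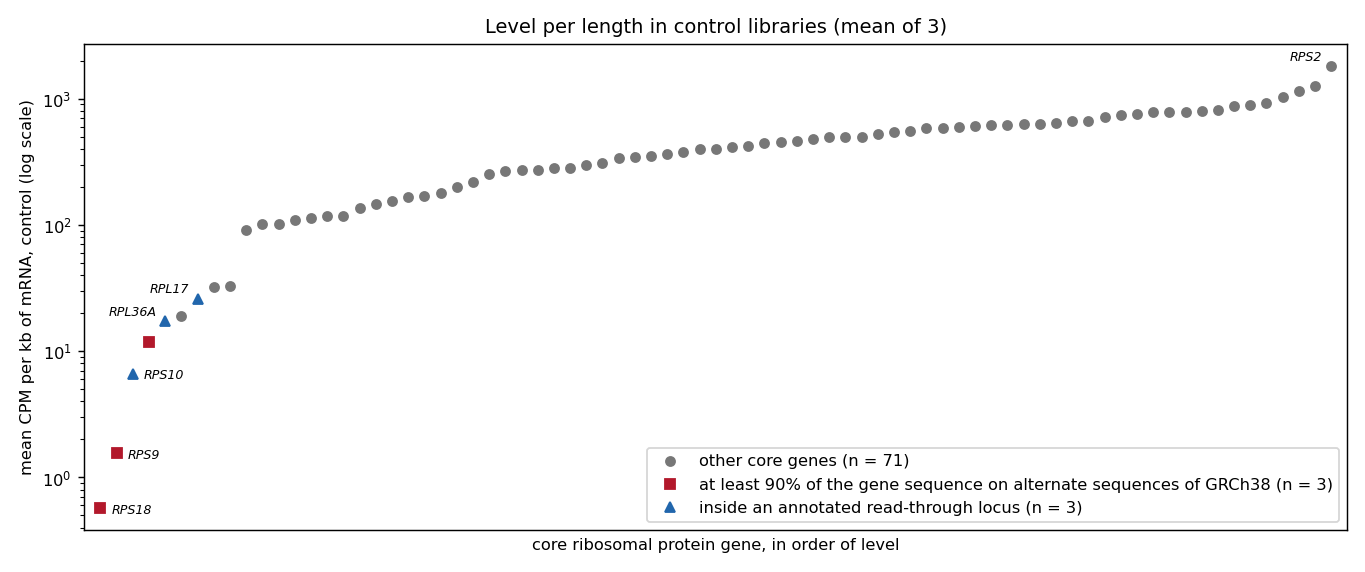
Mean CPM per kb of mRNA in the 3 control libraries (log axis) for the 77 core genes in order, with squares for the 3 genes found on alternate sequences of GRCh38 and triangles for the 3 genes inside read-through loci. *RPS18* is lowest at 0.571 and *RPS2* highest at 1808 CPM per kb.

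Among the other 71 core genes, between 5.53% and 100% of the 32-base words of the mRNA occurred at another place on the main chromosomes (median 46.2%), for *RPLP0* 79.5%. Reads from such words cannot be assigned by sequence alone. The 31 ribosomal protein pseudogenes in the table summed to 105 to 109.8 CPM in control and 106.4 to 108.9 CPM in siKIFC1 libraries. None of the 15 tested was called by edgeR, DESeq2 or limma-voom, and 1 had an unadjusted p under 0.05.

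Small nucleolar RNA genes, whose products guide rRNA modification, lay on the same strand inside 28 of the 77 core genes, 59 in all. The 28 host genes had log2FC values from 0.01 to 0.20, all positive, with a median of 0.13. Without control replicate 3, 19 of the 28 were positive (median 0.02), and without siKIFC1 replicate 1, 18 were (median 0.04), while all 28 were positive without any one of the other 4 libraries. These counts were added after the values had been seen. The 48 other tested core genes had a median of 0.09, with 38 positive. No host gene was called by edgeR with or without the block, by DESeq2 or by limma-voom, and none had an unadjusted p under 0.05.

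The remaining genes of the ribosome and of its assembly gave few calls. *FAU*, whose product is a ubiquitin-like fusion cleaved to give a ribosomal protein, had 219 ± 22.6 CPM in control and 231 ± 43.1 CPM in siKIFC1 libraries (SD, n = 3). *RACK1*, a scaffold on the small subunit, had 328 ± 41.6 and 349 ± 61.3 CPM. The adjusted p was 0.938 for *FAU* and 0.915 for *RACK1* in edgeR.

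Of 120 tested genes of rRNA synthesis and ribosome assembly, 0 were called by edgeR, DESeq2 or limma-voom, and 4 higher and 1 lower had an unadjusted p under 0.05 in edgeR, where 9.24% of all genes did. Their median log2FC was 0.08. With the replicate block *WDR18* and *DCAF13* were called higher and *POLR1A*, the largest subunit of RNA polymerase I, lower (block log2FC values 0.49, 0.30 and -0.30), where the block called 2.72% of all genes higher and 3.06% lower. Of 38 translation factors and other genes with TOP mRNAs, 0 were called by the same tools and 1 had an unadjusted p under 0.05, with a median of 0.09. With the block *EIF4A2*, an RNA helicase of initiation, was called higher (0.25).

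The 74 tested mitochondrial ribosomal protein genes had a median log2FC of 0.07, with 0 called by the same tools and 4 higher at an unadjusted p under 0.05. With the block *MRPL35* and *MRPS10* were called higher (0.31 and 0.33). All 17 tested noncoding hosts of small nucleolar RNAs had positive values, with a median of 0.17, and 13 to 16 of them did with 1 library left out. None was called by the same tools, and 3 had an unadjusted p under 0.05, beside 9.24% of all genes. With the block *GAS5*, itself a TOP transcript, and *SNHG8* were called higher (0.32 and 0.58), as were 2.72% of all genes.

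Of 19 genes of mTORC1 and of proteins that bind or regulate TOP mRNAs, 0 were called by the same tools, and the median was 0.00 (-0.0045). With the block *PDCD4*, an inhibitor of EIF4A, and *TSC1*, a brake on mTORC1, were called lower (-0.41 and -0.43), and both had an unadjusted p under 0.05 without it. Of all genes, 3.06% were called lower with the block and 9.24% had such a p. Of 8 dedicated chaperones and export factors of ribosomal proteins, 0 were called and 0 had an unadjusted p under 0.05 in edgeR, with a median of 0.02.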

How the data were processed

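RNA was sequenced from 6 H146 libraries, 3 per group. The authors aligned reads to GRCh38 with HISAT2 2.2.1, counted them per gene with featureCounts 2.0.8 and deposited raw counts. The annotation, strand setting and treatment of reads with several places are not given in the sources used here. Of the NCBI gene IDs, 27745 were matched to a RefSeq symbol, and 650 without one made up 0.0618% of counts. The deposited table was used whole.

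The main test was edgeR's quasi-likelihood test (version 4.0.16, R 4.3.3), with filterByExpr, TMM scaling and robust fitting. P-values were adjusted by Benjamini-Hochberg over 14776 genes at a threshold of 0.05, and the script was tested on simulated data. CPM are TMM-scaled, and each standard error is the absolute log2 fold change over the square root of F. The common biological coefficient of variation was 13.2%. Ratios were tested with exact two-sided permutation tests in scipy 1.17.1. DESeq2 1.42.0, limma 3.58.1, other scalings and filters, the block and leaving out each library were alternatives.

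Libraries with the same replicate number deviated together (correlations over 12169 genes of 0.468, 0.371 and 0.443, against -0.400 to -0.0442 for different numbers), so the numbers were taken as pairs. Deviations from a group mean sum to 0, so positive values for the same number push those for different numbers below 0. The pairing rests on the data, since the labels do not state one. Genes are not independent replicates.

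The members and lists were chosen with earlier results of these data known. Members named are those called with or without the block, the 5 highest and 5 lowest log2 fold changes, the 5 highest levels in CPM and per length, the paralogs with their parents, and the stalk genes, *RPSA*, *RPL5*, *RPL11* and *RPS6*. *RPL4*, the 6 low genes, *RPL14*, *RPL23A*, *RPL37* and *RPS28* were named after their values were seen. Some genes that the rule would name are not reported here. Intervals and floors cover counting error only.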

Additional observations from a re-analysis of the deposited data

How the results depend on the processing

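With the replicate number as a block, 4 members were called higher, and every other alternative gave 1 (*RPLP0*), including each library left out. No alternative called a member lower. The block brought *RPL22L1*, *RPL26L1* and *RPS25* past the threshold (log2 fold changes 0.39, 0.40 and 0.27) and changed no other member's call. With 1 library left out, the log2 fold change ranged from -0.0302 to 0.25 for *RPLP1*, from -0.0261 to 0.26 for *RPLP2*, from -0.33 to 0.0359 for *RPL36A* and from -0.0110 to 0.15 for *RPL36AL*, none of them called. The log2 ratio of *RPS27L* to *RPS27* ranged from -0.0935 to 0.0694 and that of *RPL7L1* to *RPL7* from -0.130 to 0.0434. With differences taken within replicate pairs, the *RPL22L1* to *RPL22* ratio had an exact p of 0.25, the smallest that 3 pairs allow. The median over the members stayed at 0.08 to 0.10 under other scalings, filters and tests, and ranged from -0.00067 without control replicate 3 to 0.18 without siKIFC1 replicate 3. Depth limits *RPL39L*, *RPS9*, *RPS18* and the other low genes.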
